A study of Macaca mulatta with 23 samples.

Results

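The imprinted GNAS locus lies at chr20:57410000-57490000 in the human build hg19, the coordinates of the deposited table. All measured positions inside these bounds were taken, whatever their level, and they numbered 267 of 444312 (0.0601% of the table). Of these, 74 lay in the NESP window (chr20:57414000-57418700), 59 in the NESPAS-XL window (chr20:57425600-57431500) and 124 in the exon A/B window (chr20:57463200-57465300). The main GNAS promoter window (chr20:57465300-57468000) held 0 measured positions, and the other 10 lay elsewhere in the locus. A position is a single cytosine coordinate with a methylation level, the share of reads in which that cytosine was protected from bisulfite, given here in percent.

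GNAS encodes the alpha subunit of the stimulatory G protein, which couples hormone and neurotransmitter receptors to cyclic AMP synthesis. The locus has several promoters, and DNA methylation at some of them depends on the parent from which the chromosome was inherited. The NESP promoter, which drives a chromogranin-like protein of neuroendocrine cells, is known to be methylated on the paternal copy. The promoters of the antisense transcript NESPAS, of the long variant XL-alpha-s and of exon A/B, whose untranslated transcript acts in cis on GNAS, are known to be methylated on the maternal copy. The main GNAS promoter is known to be free of methylation on both copies.

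The samples were genomic DNA of the central nucleus of the amygdala, a main output station for fear responses, from 23 rhesus monkeys (Macaca mulatta), profiled by reduced representation bisulfite sequencing. This assay sequences MspI fragments of CpG-rich DNA after bisulfite treatment. The left hemisphere gave 11 libraries and the right 12, with 1 hemisphere per monkey, no treatment and no genotype difference in the labels. Each monkey had an anxious temperament score, from -1.48 to 1.43 with a median of 0.08, and an age, from 1.1 to 2.13 years with a median of 1.27 years. The study asked whether methylation followed the score as a continuous trait, with age as the covariate. The table does not give the parent of origin of a read, so methylation of 1 allele in all cells and of both alleles in some cells cannot be told apart.

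Libraries carry the name of their hemisphere and a running number. Left 3 lacked a value at 69.7% of the locus positions, left 4 at 39.7%, right 9 at 25.1% and right 3 at 8.61%, and the others lacked at most 4.12%. Right 9 also stood apart in its values. At locus positions whose mean lay between 20% and 80%, 36.8% of its values were exactly 0 or 100%, and the next highest share was 3.51%, in left 3. The read depth of the values is unknown. Positions were tested for the score, age and hemisphere when at least 20 monkeys had a value and the values spanned at least 10 percentage points. This left 217 of the 267: 63 in NESP, 45 in NESPAS-XL, 108 in exon A/B and 1 elsewhere. A further 29 had too few values and 21 spanned too little.

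Intermediate methylation was more frequent in the locus than over the whole table. Of the 267 positions, 119 (44.6%) had a mean level from 20% to 80%, 57 (21.3%) were below and 91 (34.1%) above. Over the table these shares were 18%, 60.9% and 21.1%. The 3 named windows differed in makeup. NESPAS-XL had intermediate levels at 45 of its 59 positions and none above 80%. NESP held 29 low, 28 intermediate and 17 high positions. Exon A/B held 69 high, 46 intermediate and 9 low positions. These shares are descriptions, since neighbouring positions can be read on the same fragment.

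**Figure D1:**
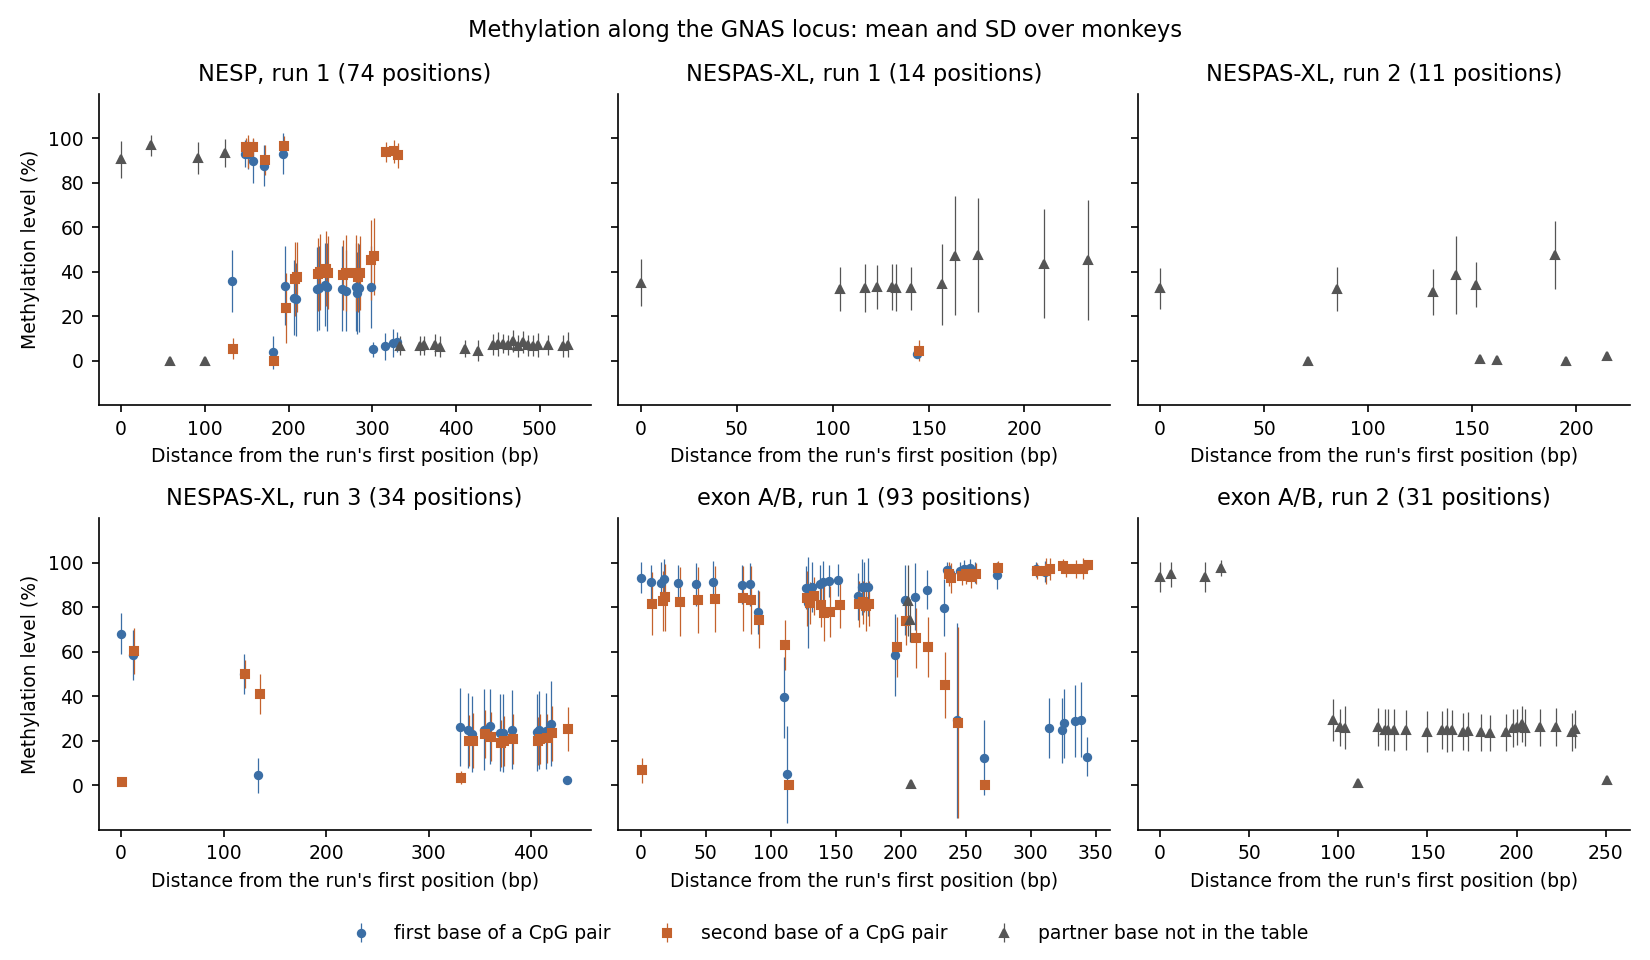
Methylation level (%, y axis) against distance in bp from the first position (x axis) in the 6 runs of the 3 named windows. Points are means over monkeys and bars are SDs. Colours mark the first base, the second base and cytosines not read as part of a pair, most of them without a measured partner. Levels step between low, intermediate and high within short distances. Near the end of exon A/B run 1, 5 first bases lie near 25% to 30% with partners near 97%, and the last lies at 12.9% with its partner at 99%.

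At NESP, the window of the promoter of the chromogranin-like protein, all 74 positions fell in 1 run, at chr20:57415044-57415578. A run here means 3 or more measured positions in which neighbours are no more than 200 bp apart. Its blocks, the stretches of near-equal level defined below, were high at the start, intermediate in the middle and mostly low at the end, with single positions that departed from this order. Of the 6 unpaired positions up to 57415168, 4 were high and averaged 92.9% ± 5.16 (SD, n = 21), and the other 2 read 0% in all monkeys with a value. The level was still 93% at 57415237 and 33.8% at 57415240, 2 positions on the same side of their pairs. The 20 unpaired positions at chr20:57415377-57415578 averaged 6.97% ± 4.1 (SD, n = 20), with no monkey above 17.4%. Just before them, the second bases 57415360, 57415370 and 57415375 were high, at 93.6%, 94% and 92.3%.

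The intermediate stretch between these ends was where monkeys differed. Where adjacent coordinates both had values they were read as the first and second base of 1 CpG pair, cytosines on opposite strands. The adjacent coordinates 57464317, 57464318 and 57464319 in exon A/B form a chain of odd length and were left unpaired. Stretches of 4 or more positions on the same side of their pairs, in 1 level class and no more than 60 bp from each other are called blocks, a definition chosen after the levels had been seen. The 13 first bases at chr20:57415240-57415342 averaged 31.9% ± 18.4 (SD, n = 23), from 0.154% in right 9 through a median of 34.2% to 68.2% in right 8. Their 14 second-base counterparts at chr20:57415241-57415346 averaged 38.9% ± 16.1 (SD, n = 23), from 12% in left 3 to 79.1% in right 2. Within the first-base block the median correlation between positions over monkeys was 0.984, so the 13 positions carried nearly the same information. Position 57415290 had the largest SD of NESP, 19.8 points around a mean of 33.3%. It read 0% in right 9, 6% in left 4 and 7% in left 3, and 71% in right 8 and 65% in right 1.

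The lowest level of NESP was shared by 3 positions, 57415103, 57415144 and 57415227, at 0% in all 21 monkeys with a value. The highest was at 57415080, at 96.7% ± 4.65 (SD, n = 21), 23 bp from the first of them. Over the locus 6 positions (2.25%) read 0% in every monkey with a value, against 2.36% of the whole table. The reads of these macaques were placed on human coordinates, and which human CpG sites are also CpG sites in the macaque genome was not analysed here.

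At NESPAS-XL, the window of the antisense and XL-alpha-s promoters, the 59 positions held 3 runs. The first, chr20:57426626-57426859 with 14 positions, averaged 32.8% ± 12.4 (SD, n = 22). The second, chr20:57427341-57427556 with 11 positions, averaged 19.9% ± 6.33 (SD, n = 19) and had too few monkeys to be tested. The third, chr20:57428905-57429341 with 34 positions, averaged 26.1% ± 9.27 (SD, n = 23). All 3 were intermediate or just below it, with single positions near 0 among them.

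The first run held 2 stretches that differed in spread. The 6 unpaired positions from 57426730 to 57426767 had means from 32.3% to 33.1% and SDs from 9.73 to 10.9 points. The 4 positions from 57426790 to 57426859 had means from 43.6% to 47.5% and SDs from 24.5 to 27 points. Position 57426859, with the largest SD of NESPAS-XL, read from 9% in left 11 to 84% in left 6 around a median of 47% (n = 22). Of the 22 monkeys, 10 were at or below 33% there, 9 at or above 57% and 3 between, with bounds chosen after the values had been seen.

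In the third run the highest levels came first. Position 57428905 had the highest mean of NESPAS-XL, 68.1% ± 9.08 (SD, n = 22), and the pair at 57429025 averaged 50% on both bases. The 12 first bases at chr20:57429235-57429324 averaged 24.8% ± 17.3 (SD, n = 23). They ran from 0.333% in right 9 through a median of 22.5% to 71.8% in right 2. Of the 12 second bases at chr20:57429244-57429341, the 9 with means of 20% or more averaged 21.7% ± 11 (SD, n = 23), from 7.67% in left 10 to 43.1% in right 5. The other 3 had means from 18.8% to 19.7% and so fell just below the bound of the class. The 2 sides of these pairs had close means but ranked some monkeys differently: right 9 read 0.333% on first bases and 40.1% on second bases, and right 2 read 71.8% and 21.8%.

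Exon A/B, the promoter region of the untranslated transcript just upstream of the main promoter, held 2 runs with different levels. The first, chr20:57464111-57464455 with 93 positions, averaged 75.5% ± 3.17 (SD, n = 23), the highest of the 6 runs in the named windows. Of its 39 first bases from 57464111 to 57464422, the 32 above 80% averaged 91.4% ± 3.87 (SD, n = 22), and the other 7 had means from 5% to 79.8%. Of the 22 second bases at chr20:57464120-57464287, the 17 above 80% averaged 82.6% ± 7.36 (SD, n = 22), and the other 5 had means from 0% to 78%. The second run, chr20:57464869-57465120 with 31 positions, averaged 31.3% ± 7.67 (SD, n = 22). Its first 4 positions averaged 94.9% ± 4.57 (SD, n = 19), and 63 bp beyond the last of them began a block of 25 unpaired positions, chr20:57464966-57465102, at 25.3% ± 8.51 (SD, n = 22), around a single position at 0.864%. That block ran from 10.9% in right 9 through a median of 24% to 44.4% in left 4.

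At the end of the first exon A/B run the 2 bases of each pair parted. The 5 first bases at chr20:57464425-57464450 averaged 27.1% ± 14.6 (SD, n = 23), from 0% in right 9 through a median of 24.2% to 61% in right 12. Their second bases, 1 bp further, had means from 97% to 98.3%. Position 57464455, the second base of the last pair, had the highest mean of exon A/B at 99% ± 2.35 (SD, n = 20), and its first base 57464454 averaged 12.9% ± 8.86 (SD, n = 21).

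A single CpG pair in exon A/B split the monkeys into 2 levels with nothing between. Position 57464354, with the largest SD of the locus (43.8 points), read from 93% to 100% in 6 monkeys and from 0% to 18% in the other 15. Its second base, 57464355, read from 87% to 96% in the same 6 monkeys and from 0% to 6% in the other 14 with a value. The 6 were left 1, right 2, right 3, right 7, right 11 and right 12. The position 3 bp on, 57464357, read from 86% to 100% in all 23 monkeys. These 2 positions were the only ones of the locus with an SD of 40 points or more, a spread that 150 positions of the table (0.0338%) reached. Left 3 and left 4 had no value at the pair.

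**Figure D2:**
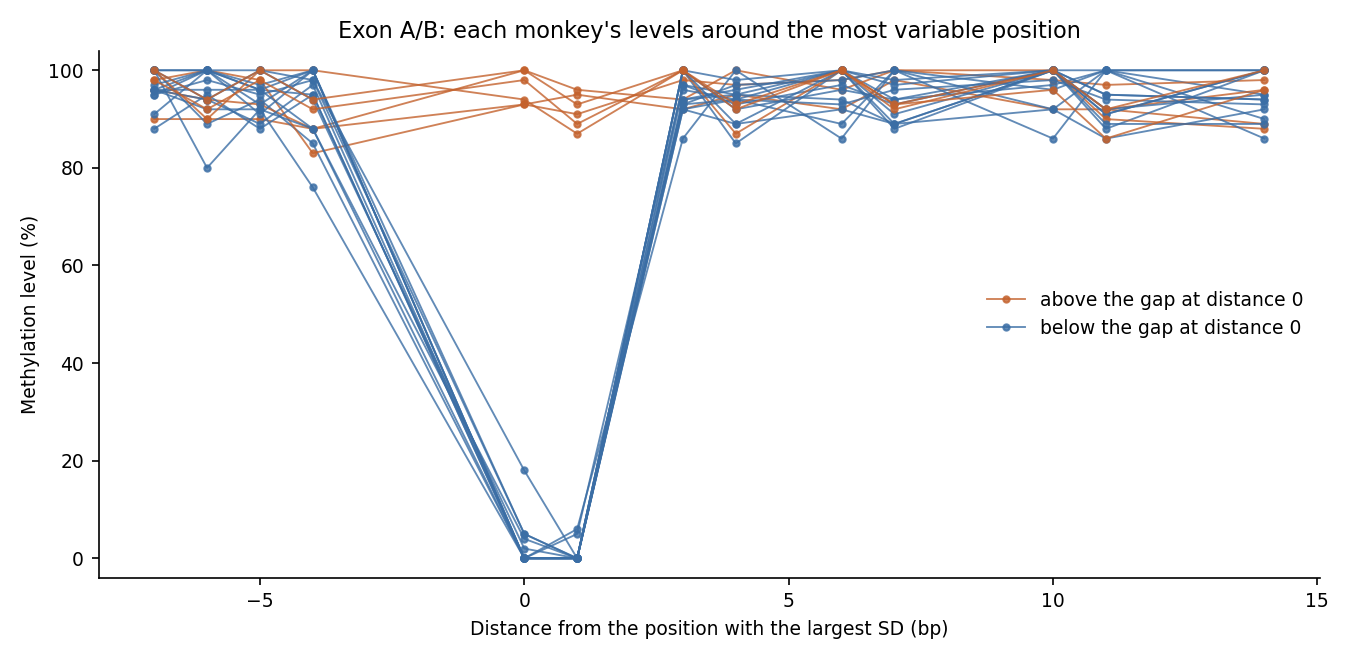
Methylation level (%, y axis) of single monkeys, 1 line each, against distance in bp (x axis) from the exon A/B position with the largest SD. In the 6 monkeys of 1 colour the level at distance 0 was 93% or more and in the 15 of the other colour 18% or less, while at 3 bp all read 86% or more.

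The 10 positions outside the named windows lay between 57474928 and 57484968. Of these, 5 had means of 14.1% or less and 5 had means of 96.1% or more. In the run chr20:57484793-57484968, with 8 positions, 57484960 read 0% in all 22 monkeys and 57484966, 6 bp on, 99.2% ± 1.14 (SD, n = 22). The run had a mean of 61.6% ± 0.892 (SD, n = 22), which is an average of positions near 0 and near 100% and describes no position in it. Only 57484793, at 3.27% ± 3.21 (SD, n = 22), could be tested there.

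Disagreement between the 2 bases of a pair was more frequent in the locus than in the table, in a comparison not matched for level. The locus held 87 pairs, and the median absolute difference between the means of their bases was 6.95 points, against 1.02 points over the 116201 pairs of the table. The difference was over 20 points in 19 locus pairs (21.8%) and in 9.51% of all pairs. NESP had 5 such pairs of 24, NESPAS-XL 4 of 18 and exon A/B 10 of 45. The largest was at NESP, where 57415359 averaged 6.47% and 57415360 averaged 93.6%. The part of strand in these differences was not tested.

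Spread between monkeys was wide at NESP and NESPAS-XL and narrower at exon A/B. Averaged over a window, with each position centred on its own mean, NESP lay at 35.9% ± 8.66 (SD, n = 23), from 12.5% in left 3 through a median of 37% to 48.8% in right 1. NESPAS-XL lay at 26.8% ± 8.3 (SD, n = 23), from 13.7% in right 11 through 28.2% to 40.2% in right 2. Exon A/B lay at 65.1% ± 3.07 (SD, n = 23), from 60.4% in left 11 through 65.1% to 73.4% in left 3. The lowest NESP and the highest exon A/B level both came from left 3, the library with the most missing values.

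Beside other runs of the table, the first and the third NESPAS-XL runs were among the more variable. The table held 914 runs of at least 10 positions with a mean from 20% to 40%, and their SDs over monkeys had a median of 6.2 points and quartiles of 4.55 and 8.75 points. These NESPAS-XL runs had SDs of 12.4 and 9.27 points, above the upper quartile. The NESP run, at 8.44 points, and the second exon A/B run, at 7.67, lay between the median and the upper quartile. Per position the picture was less marked. The intermediate positions of the locus had a median SD of 13.4 points, against 13.7 points for intermediate positions overall. By window this median was 17 points in NESP, 11.5 in NESPAS-XL and 9.61 in exon A/B.

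**Figure D3:**
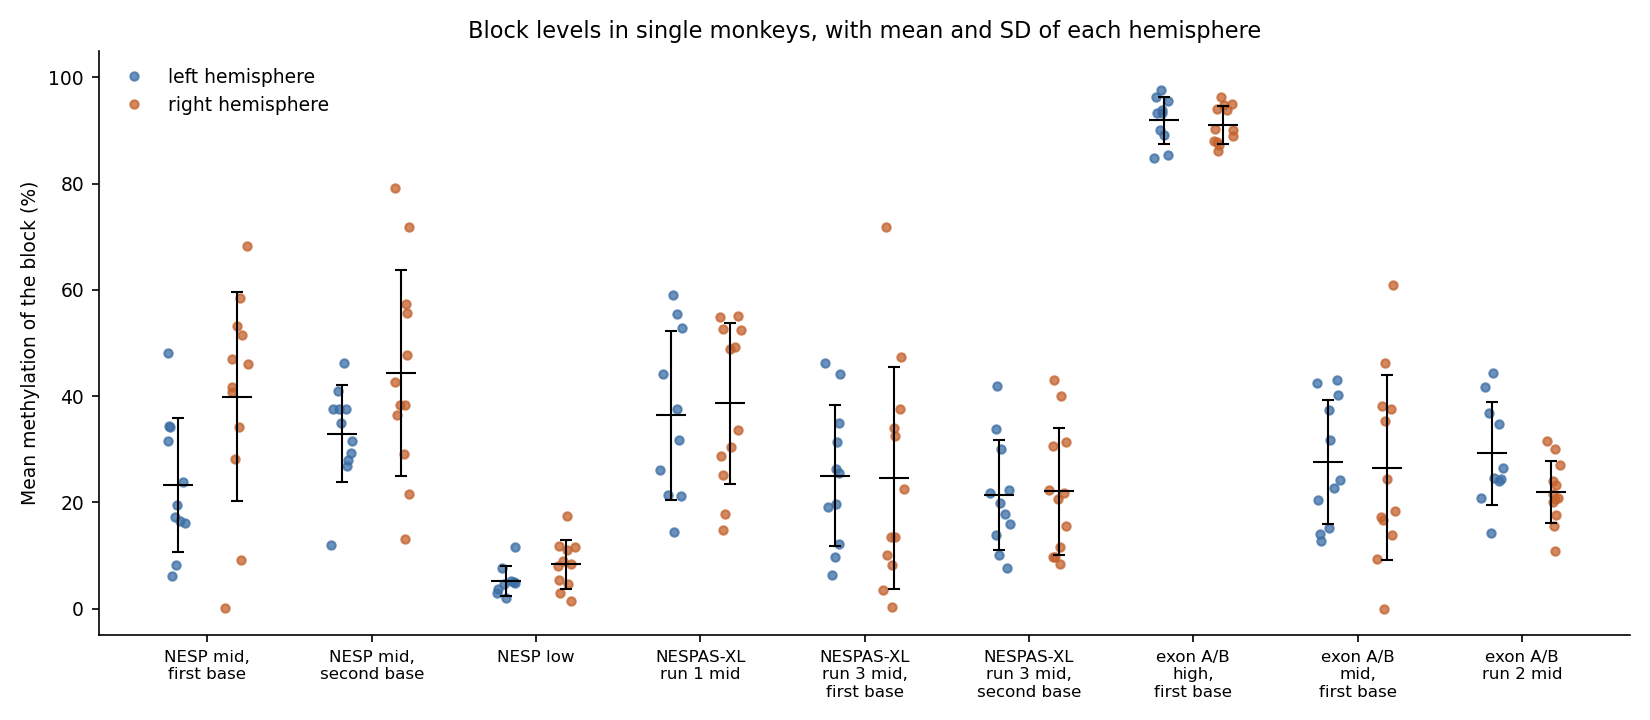
Mean methylation of 9 blocks (%, y axis) in single monkeys, coloured by hemisphere, with horizontal marks for the hemisphere mean and bars for its SD. The NESP mid block on first bases averaged 23.3% in left and 39.9% in right samples with overlapping values, and the high block of exon A/B stayed between 84.9% and 97.6%.

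The study's main question was whether methylation followed the anxious temperament score. No position of the locus did so detectably. With limma on percent methylation, with age as a covariate and Benjamini-Hochberg adjustment over 192151 positions, 0 of 217 locus positions had an adjusted p under 0.05, the same share as in the table (0%). At an unadjusted p under 0.05 the locus again had 0 positions, where the table had 3.12%. The smallest p was at 57464445, the exon A/B first base described above, where the level was higher by 8.53 ± 4.15 points for each unit of score (SE, n = 21), p = 0.0518 and adjusted p = 1 by limma. In NESP 48 of 63 slopes were positive, and in exon A/B 74 of 108 were negative, but neighbouring positions repeat each other. The shares of each direction over the table were not computed, so these counts are descriptions only.

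At the level of runs the result was the same. Of the 5 locus runs tested, 0 had an adjusted p under 0.05 for the score by limma and 0 an unadjusted p under 0.05, where the 21253 runs of the table had 0% and 3.2%. In points for each unit of score, NESP had a slope of 1.53 ± 2.46 (SE, n = 23). It was -2.84 ± 3.51 (SE, n = 22) and -1.28 ± 2.21 (SE, n = 23) at the first and the third NESPAS-XL runs. It was 0.14 ± 0.982 (SE, n = 23) and -2.63 ± 2.18 (SE, n = 22) at the 2 exon A/B runs. Each of the 5 slopes lay within 2 standard errors of 0. The monkeys fall into 2 series of identifiers, 12 starting with r and 11 with B, a label whose meaning was not given in the sources used here. At NESP the r monkeys gave a score slope of 0.733 and the B monkeys -1.52, and at the first NESPAS-XL run these were 7.27 and -8, with an adjusted p of 1 in each of these by limma. A difference of the score slope between hemispheres was not detectable either: over the runs the smallest p of the interaction was 0.138, with an adjusted p of 1 by limma.

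The age term gave its lowest p-values in the third NESPAS-XL run. After adjustment 0 of 217 positions were called by limma, where 0.0531% of the table was (102 positions). At an unadjusted p under 0.05 the locus had 25 positions (11.5%), 22 with higher and 3 with lower levels in older monkeys, against 4.06% of the table. All 22 lay between 57429235 and 57429341, in NESPAS-XL. Among them were all 12 positions of the first-base block, with slopes from 36.3 to 42.8 points per year, and 7 of the 9 in the second-base block, whose slopes ran from 20.5 to 25.1. The smallest p was at 57429235, with 42.84 ± 14 points per year (SE, n = 23), p = 0.00533 and adjusted p = 0.749 by limma. Within the first-base block the median correlation between positions over monkeys was 0.977, so these positions repeat each other.

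The values behind this slope can be read monkey by monkey. On first bases the oldest monkey, left 1 at 2.13 years, had 44.2%, and right 2 at 1.64 years had 71.8%, the highest of all. The 2 youngest, left 5 and right 11 at 1.1 years, had 31.4% and 3.58%. On second bases left 1 had 42% and right 2 21.8%, while right 5 at 1.28 years had 43.1%. The young and old monkeys therefore overlapped in level.

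**Figure D4:**
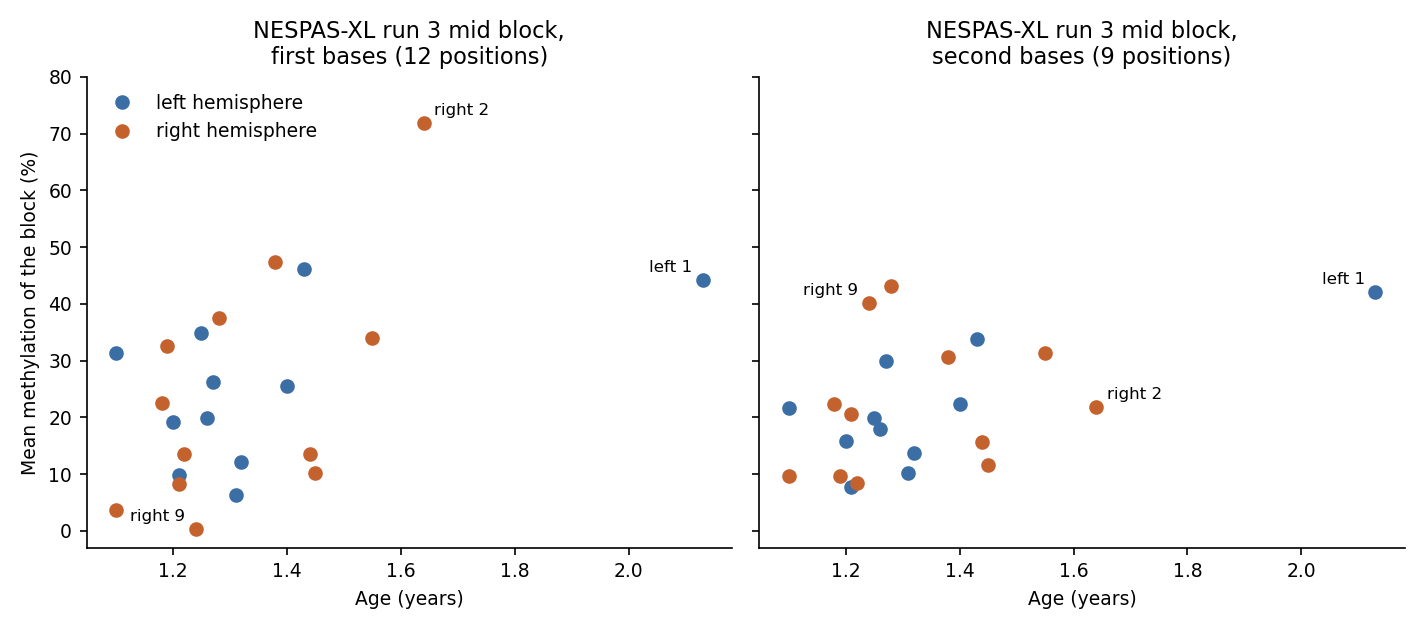
Mean methylation of the mid blocks of the third NESPAS-XL run (%, y axis) against age in years (x axis), 1 point per monkey, with first bases on the left and second bases on the right. Left 1 and right 2, the oldest, read 44.2% and 71.8% on first bases, and monkeys under 1.5 years ran from 0.333% to 47.4%.

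As a run, chr20:57428905-57429341 had an age slope of 23.9 ± 7.43 points per year (SE, n = 23), p = 0.00392 and adjusted p = 0.646 by limma. It was the only 1 of the 5 tested locus runs with an unadjusted p under 0.05, a share of the table's runs that was 4.81%, and 0 of the 5 passed adjustment, where 0.0565% of the table's runs did. Leaving out single monkeys moved the slope between 20.9 without right 2 and 31.8 without left 1. Without both it was 24.4 points per year, with p = 0.108 and adjusted p = 0.982 by limma, so 0 of the 5 runs then had an unadjusted p under 0.05. Among r monkeys alone it was 17.8 and among B monkeys alone 25.5 points per year, with adjusted p-values of 1 and 0.79 by limma. Over all alternatives its adjusted p ran from 0.414 to 1.

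For hemisphere, the low p-values lay mainly in 2 blocks, the NESP intermediate block on first bases (13 positions) and the block of the second exon A/B run (11 positions). At 57415290 the left hemisphere had a mean of 23.6% ± 13.8 (SD, n = 11) and the right one of 42.1% ± 20.8 (SD, n = 12). All 13 first bases of the block had an unadjusted p under 0.05 by limma, with right samples higher by 14.7 to 20 points after accounting for score and age. Left samples ran from 6.23% in left 4 through 19.5% to 48.2% in left 1 over the block, and right samples from 0.154% in right 9 through 44% to 68.2% in right 8. The groups overlapped over most of the range. On the second bases 1 of 14 positions had an unadjusted p under 0.05, with differences from 7.18 to 15.6 points in the same direction. This difference between sides of the pair was not tested.

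None of these hemisphere differences passed adjustment. Of 217 locus positions 0 had an adjusted p under 0.05 by limma, as in the whole table (0%). At an unadjusted p under 0.05 there were 31 (14.3%), 16 higher and 15 lower in right samples, against 3.48% of the table. NESP held 17 of them, exon A/B 13 and the rest of the locus 1. The smallest p was at NESP position 57415178, a low position. Its left mean was 8.78% ± 3.31 (SD, n = 9) and its right mean 3% ± 4.22 (SD, n = 12). The fitted right minus left difference was -6.19 ± 1.64 points (SE, n = 21), with p = 0.00104 and adjusted p = 0.93 by limma. The 9 left values ran from 5% to 13%, and 6 of the 12 right values were 0%, while right 4 read 14%, the highest of all.

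As runs, NESP was 8.5 ± 3.16 points higher in right samples (SE, n = 23), with p = 0.0137 and adjusted p = 0.975 by limma. The left mean was 32% ± 8.17 (SD, n = 11) and the right mean 40.2% ± 6.86 (SD, n = 12). The difference ran from 6.2 points without left 3 to 9.65 without right 4, and it was 7.61 among r monkeys and 8.49 among B monkeys. A plain mean moves with the positions a monkey has, and left 3 and left 4 lacked both ends of this run. With each position centred on its own mean, the NESP difference was 7.94 ± 3.32 points (SE, n = 23), with p = 0.0262 and adjusted p = 0.975 by limma. The second exon A/B run went the other way, with a left mean of 34.9% ± 6.8 (SD, n = 10) and a right mean of 28.3% ± 7.27 (SD, n = 12). Its fitted difference was -6.98 ± 2.96 points (SE, n = 22), with p = 0.0283 and adjusted p = 0.975 by limma. It was -7.5 among r monkeys and -6.35 among B monkeys, and ran from -7.79 without left 11 to -5.38 without right 9. Its unadjusted p was not under 0.05 by limma when left 4, left 8 or left 9 was left out. Left 4, right 3 and right 9 lacked its first 4 positions, which averaged 94.9%. With positions centred its unadjusted p stayed under 0.05 by limma. NESP and this run were the 2 with an unadjusted p under 0.05, of 5 tested, where 3.12% of the table's runs reached that level. After adjustment 0 of 5 remained, as in the whole table (0%). Because each monkey gave 1 hemisphere, hemisphere and monkey cannot be told apart.

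Mean levels of NESP, known as paternally methylated, and of the windows known as maternally methylated were compared for joint variation over monkeys. These means took in positions of every level. Exon A/B held 69 high, 46 intermediate and 9 low positions, and NESP 17 high, 28 intermediate and 29 low. NESPAS-XL was intermediate at 45 of 59. A relation between window means is therefore not one between intermediate positions alone. Whether it reflects the parental marks was not tested. Over 23 monkeys NESP and exon A/B were inversely related, with Pearson r = -0.611 (permutation p = 0.00193, adjusted p = 0.00579 over 3 pairs of windows) and Spearman rho = -0.44 (permutation p = 0.0362, adjusted p = 0.0716). Without left 3 and left 4, the 2 monkeys farthest from the median NESP level and also the 2 with the most missing values, r was -0.25, so the relation rested on those samples. Within the r and B series r was -0.607 and -0.59, with adjusted permutation p-values of 0.122 and 0.0847. The r series holds left 3 and the B series left 4, so these values do not stand apart from those samples. NESP and NESPAS-XL gave r = -0.0436 (permutation p = 0.847) and rho = 0.0474 (permutation p = 0.831). NESPAS-XL and exon A/B gave r = 0.387, with an adjusted permutation p of 0.102. With only positions that had a value in all 23 monkeys, r was -0.494. That choice kept 12 of 124 positions in exon A/B and 30 of 59 in NESPAS-XL, so the 2 coefficients describe different sets of positions.

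Block by block, relations past the threshold lay within NESP, within NESPAS-XL and between it and the end of the first exon A/B run. The 9 intermediate blocks gave 36 pairs, a family chosen after the levels had been seen, and 7 had an adjusted permutation p under 0.05 for r. One was the pair of NESP blocks on the 2 sides of the same stretch, with r = 0.778 (n = 23). The mid block of the first NESPAS-XL run, chr20:57426730-57426859, was positively related to the first-base block of the third run, with r = 0.632 (n = 22, permutation p = 0.0013, adjusted p = 0.0156) and rho = 0.669 (permutation p = 0.00096, adjusted p = 0.0173). It was likewise related to the second-base block of that run, with r = 0.609 (n = 22, permutation p = 0.00297, adjusted p = 0.0228) and rho = 0.65 (permutation p = 0.0015, adjusted p = 0.018). Within the r and B series these coefficients were 0.469 and 0.788 for the first bases and 0.683 and 0.57 for the second.

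The exon A/B first-base block at chr20:57464425-57464450 was inversely related to 3 of the 4 NESPAS-XL blocks. The exception was the first-base block of the third run, with r = -0.337 (n = 23, permutation p = 0.117, adjusted p = 0.301) and rho = -0.338 (permutation p = 0.115, adjusted p = 0.414), and r of 0.0854 among r monkeys and -0.683 among B monkeys. For the first-run NESPAS-XL block the relation was r = -0.591 (n = 22, permutation p = 0.0038, adjusted p = 0.0228) and rho = -0.574 (permutation p = 0.00572, adjusted p = 0.0343). To the second-base block of the third run it was r = -0.581 (n = 23, permutation p = 0.00375, adjusted p = 0.0228) and rho = -0.601 (permutation p = 0.00296, adjusted p = 0.0266). Leaving out the 2 monkeys farthest from the median of the NESPAS-XL block gave r of -0.561 and -0.626, and leaving out right 9 and left 3 gave -0.579 and -0.509. The sign was the same among r monkeys, at -0.696 and -0.712, and among B monkeys, at -0.525 and -0.363. Right 12 and right 11 were the extreme cases in the exon A/B block, with 61% and 46.2% there and 14.9% and 17.8% in the first-run NESPAS-XL block. The other 2 of the 7 involved the block of the second NESPAS-XL run, chr20:57427426-57427531. It gave r = 0.577 with the second-base block of the third run and r = -0.674 with the exon A/B block, both over 19 monkeys. For the first of these rho was 0.536 (permutation p = 0.0187, adjusted p = 0.0842), not past the threshold. For the second rho was -0.593 (permutation p = 0.00876, adjusted p = 0.0451). Without right 12 and right 9 the r values became 0.376 and -0.409, so both relations rested in part on those libraries.

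**Figure D5:**
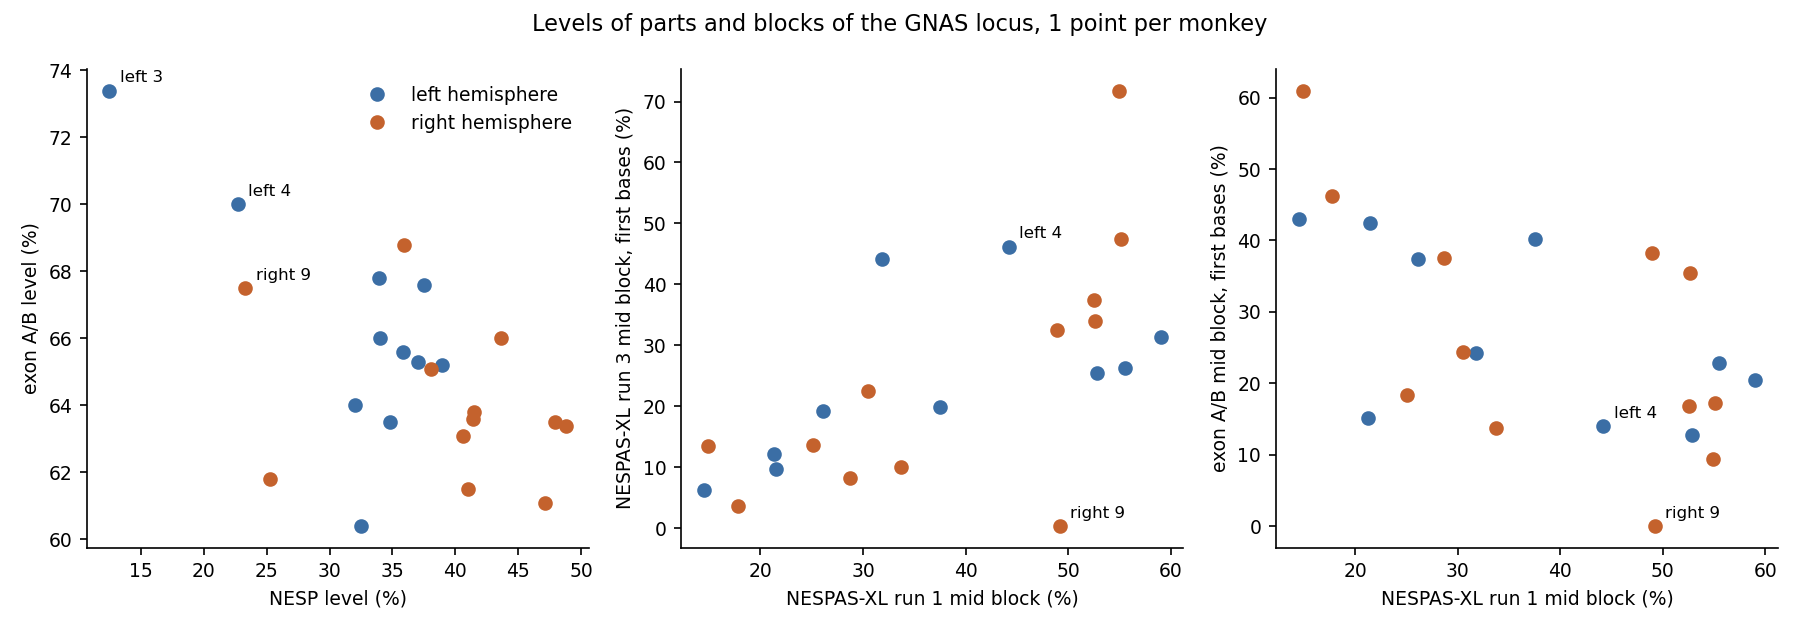
Levels (%, both axes) of 2 units of the locus in each panel, 1 point per monkey, coloured by hemisphere. Left panel: NESP against exon A/B, where left 3 and left 4 sit at the upper left (r = -0.611, and -0.25 without them). Middle and right panels: the first-run NESPAS-XL block against the first bases of the third run (r = 0.632) and of the exon A/B block (r = -0.591).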

How the data were processed

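Genomic DNA of the central nucleus of the amygdala from 23 rhesus monkeys was profiled after MspI digestion, per the labels' protocols. Alignment used Bismark 0.11.1 and the human build hg19, per the submitters' processing notes. The authors deposited a table of methylation levels as a fraction from 0 to 1 with 2 decimals and no coverage. Depth, coverage filters and strand handling were not given in the sources used here, so no interval or floor was computed.

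Fractions were multiplied by 100. Positions valued in 20 or more monkeys that spanned 10 or more points (192151), and plain means of runs (3 or more positions, neighbours no more than 200 bp apart, spanning 5 or more points; 21253), were fitted with the linear model of limma 3.58.1 in R 4.3.3 with a variance trend, on score and age, and with hemisphere added. The fits were checked against limma and on simulated data. Benjamini-Hochberg adjustment ran over the whole table, 2-sided, at 0.05. Relations over monkeys used 100000 permutations, 2-sided (numpy 2.4.6, Python 3.11.15).

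Members, windows and lists were chosen with earlier results of these data known. The rule for named positions took, per window, the smallest p for score, age and hemisphere, the largest SD, and the highest and lowest mean. Positions named beyond it serve to describe blocks and pairs and were chosen after their values were seen. Blocks used a plain mean over at least 50% of their positions. The main promoter window was empty, so 3 of 6 planned relations were computed. The alternatives were other scales, filters, run definitions, covariates, complete positions, and the omission of monkeys. Added after seeing the data were fits within each identifier series, fits without left 1 and right 2, and the blocks with their 36 relations. P-values measure the spread between these samples, 1 per monkey. No sequence is shown.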

Additional observations from a re-analysis of the deposited data

How the results depend on the processing

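No adjusted call appeared in the locus under any alternative run, and the smallest adjusted p over them was 0.369 by limma, for age at a position without right 5. The higher coverage minimum was not run, since the table holds no coverage. No paired analysis was possible because left and right samples come from different monkeys and their running numbers tie no samples together.

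Counts of locus positions at an unadjusted p under 0.05 moved. For hemisphere 31 of 217 became 9 on the logit scale, 17 without left 4, 50 without left 1 and 47 without right 5. Of the table's 192151 positions 6678 became 7240, 6139, 7496 and 7338 in the same order. With complete positions only, the hemisphere count was 14 of 68 (20.6%, against 14.3% of 217), and 2575 of 72244 in the table. For age 25 became 15 without left 1, where the table's 7801 became 6773. For the score 0 became 9 without right 2 and 4 without right 11, where the table's 5991 became 7035 and 5975.

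Some slopes that were smaller than their standard errors in the main fit changed sign, and the cause was not tested. In that fit the age slopes were 0.242 ± 8.27 at NESP and -0.385 ± 3.31 and 1.17 ± 7.37 at the 2 exon A/B runs (SE, n = 22 or 23). Right minus left was 1.68 ± 5.35 and 0.352 ± 3.28 at the first and the third NESPAS-XL runs (SE, n = 22 and 23). At the first exon A/B run it was 0.0369 ± 1.46 (SE, n = 23). The age slope of the NESP run was -2.24 with the identifier series as covariate, -2.45 without right 9 and left 3, -22.1 without left 1 and right 2, and -46.3 within the r series (leaving out 1 monkey, -4.32 to 1.86). That of the first exon A/B run was 1.95 with the series as covariate, 0.801 without right 9 and left 3 and 3.44 within the B series (-2.25 to 0.317), and that of the second -0.914, -0.884 and, within the r series, -35.2 (-1.02 to 3.02). Right minus left was -0.321 without left 1 and right 2 and -0.0397 within the r series in the first NESPAS-XL run (-0.322 to 4.43). In the third it was -0.755 and, within the B series, -1.08 (-0.912 to 1.61). In the first exon A/B run it was -0.14 with centred means, -0.128 without right 9 and left 3 and -0.792 within the r series (-0.647 to 0.552). The score slope of that run was -0.0603 without right 9 and left 3 and -0.676 within the B series (-0.32 to 0.604). Within single series the score slope was -1.52 at NESP (B), and 7.27 and 2.34 at the first and the third NESPAS-XL runs (r).

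Complete positions, those with a value in all 23 monkeys, were 28 of 74 in NESP, 30 of 59 in NESPAS-XL and 12 of 124 in exon A/B. Over its complete positions the exon A/B level was 68.9%. NESP with exon A/B gave r of -0.562 with plain means, -0.305 with complete positions and -0.345 without right 9 and left 3. Within the r series, which holds left 3, it was -0.607, and within the B series, which holds left 4, -0.59. With 1 monkey left out it ran from -0.719 to -0.405, the weakest without left 3. NESP with NESPAS-XL gave 0.22 with complete positions, 0.0422 without right 9 and left 3, and -0.167 to 0.0657. NESPAS-XL with exon A/B gave -0.494 with complete positions (adjusted permutation p = 0.0478) and 0.314 to 0.464 with 1 monkey left out, past the threshold without right 2 (0.461, adjusted permutation p = 0.044) and without left 10 (0.464, adjusted permutation p = 0.0435).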

Other observations

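Windows of 3 other imprinting control regions were looked up for comparison, with hg19 bounds set from general knowledge. Those of KCNQ1OT1 and SNRPN held 0 positions of the table. The PEG3 window held 7 positions, between chr19:57352186 and 57352284, with a level of 22.8% ± 14.2 (SD, n = 23). It ran from 0.857% in right 11 through a median of 22.4% to 69.3% in left 2. Its SD was larger than that of any of the 7 GNAS runs, of which the most variable, the first NESPAS-XL run, had 12.4 points. The PEG3 level is a centred mean of 7 positions and the runs are plain means over more positions, so these measures differ. The intermediate GNAS blocks had SDs from 8.51 points in the second exon A/B run to 18.4 in the NESP first-base block. These lay on both sides of the PEG3 value. Right 11, the lowest at PEG3, was also the lowest of the 23 monkeys over the NESPAS-XL window, at 13.7%. Left 2, the highest at PEG3, had 30.4% over that window, near its median of 28.2%. A relation between the 2 regions was not tested.

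Right 9 read 0.154% and 21.6% on the 2 sides of the NESP mid stretch, and 0.333% and 40.1% on those of the third NESPAS-XL run. On the 10 second bases of intermediate level in exon A/B at chr20:57464202-57464355 it read 99.5%, where the block averaged 63.3% ± 9.9 (SD, n = 22).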
